A study of Mus musculus with 9 samples.

Results

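Array probes for long intergenic noncoding RNAs (lincRNAs) were followed in mouse microglia with and without a meal of apoptotic cells. These probes carry no gene symbol but the name of a genomic region. Some overlap or adjoin probes of named genes, and which transcript each one reports was not tested. A probe was taken as a member when its name contained lincRNA or began with a chromosome and when its spot was well above background, as called by the scanner software, on all 3 arrays of at least 1 group. Of 16194 such probes on the array, 4951 were members (30.6%), against 58.0% of the 39487 other probes that passed the same detection rule. The series holds 9 arrays of primary microglia from the brains of newborn fms-EGFP mice, in 3 groups of 3 independent experiments. Control cells had no phagocytic stimulus and are labeled as time 0, Ph3h cells had been fed SH-SY5Y cells for 3 h, and Ph24h cells for 24 h. SH-SY5Y is a human neuroblastoma line, and before the meal its cells were stained with the membrane dye CM-DiI and driven into apoptosis by 4 h in 3 μM staurosporine. The dead cells were added at about equal number. The fms-EGFP transgene, in which the Csf1r promoter drives EGFP, was carried by all 3 groups, and GM-CSF, a growth factor for these cells, was in all culture medium at 5 ng/ml. No unfed culture of 3 h or 24 h was among the groups, so time in culture and feeding cannot be told apart, and the cultures pooled pup brains without olfactory bulb and cerebellum. In such bulk RNA, fewer cells of a type and less RNA per cell cannot be told apart.

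LincRNAs are transcripts made from the stretches between protein-coding genes. Many are spliced and carry a poly(A) tail, they are usually present at lower levels and in fewer cell types than mRNAs, and the best known of them act in the nucleus by binding chromatin proteins or by being transcribed next to the gene they influence. In macrophages and microglia some are known to follow inflammatory signals. The labeling reaction here started from oligo-dT, so transcripts without a poly(A) tail would be poorly measured, and the RNA preparation, per the labels, had no DNase step.

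Each region name gives a chromosome, a start and an end on the mouse build mm9, and F or R for the forward or reverse strand. The members lay in 2096 of the 3540 regions on the array and on 2562 of 4610 region strands, and 1220 region strands had more than 1 member. The strand in the name and the strand of the probe position were the same for all 2409 F and 2493 R members with both. The share of lincRNA probes that were members ran from 20.5% on chromosome 9 to 38.1% on chromosome 19. Members were mostly dim. Their median signal was 18.4% of the 75th percentile of the same array, where that of other tested probes was 86.2%, and 877 members were brighter than the 75th percentile on average. Of the members, 3206 passed in all 3 groups, 738 only in control, 120 only at 3 h, 128 only at 24 h, 351 in control and at 3 h, 178 in control and at 24 h and 230 at 3 h and 24 h. Near the threshold, the highest intensity of a member that passed in a single group was 35.3 at the median and as low as 15.1, while that of the 763 probes just outside, with 2 of 3 arrays in their best group, was 23.4 at the median and as high as 191.

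The probes are 60 bases long, and their letters are shown because the results below divide by base composition. Capitals mark the longest run made only of G and C. The first 3 probes are among the 6 brightest members and have over 65% G and C. Coordinates are on mm9.
chr14:78924115-78938125_F: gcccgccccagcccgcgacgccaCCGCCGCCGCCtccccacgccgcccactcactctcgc
chr17:39982023-39983277_F: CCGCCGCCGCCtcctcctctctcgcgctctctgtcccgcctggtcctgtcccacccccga
chr6:83368261-83407280_F: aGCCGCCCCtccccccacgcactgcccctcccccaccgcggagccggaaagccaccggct

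The next 5 probes are among those with the largest rises after feeding. Only the last of them is rich in G and C.
chr5:54053328-54053870_F: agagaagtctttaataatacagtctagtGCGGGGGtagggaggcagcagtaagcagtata
chrX:11693432-11693908_R: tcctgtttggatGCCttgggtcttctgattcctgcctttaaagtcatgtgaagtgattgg
chr8:26870059-26870530_F: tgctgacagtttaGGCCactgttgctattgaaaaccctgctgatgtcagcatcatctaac
chr4:134866237-134867024_F: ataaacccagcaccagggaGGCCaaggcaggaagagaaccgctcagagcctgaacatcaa
chr5:124697599-124700029_F: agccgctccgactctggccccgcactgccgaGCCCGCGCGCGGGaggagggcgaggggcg

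The last group fell after feeding or changed direction between the times. Their runs of G and C are short.
chr16:44717531-44724206_R: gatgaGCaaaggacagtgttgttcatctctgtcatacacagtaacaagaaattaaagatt
chr17:71183978-71185384_F: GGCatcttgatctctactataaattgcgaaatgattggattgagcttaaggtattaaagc
chr15:61984389-62102500_F: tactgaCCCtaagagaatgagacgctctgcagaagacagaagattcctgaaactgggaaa
chr9:78107225-78118850_F: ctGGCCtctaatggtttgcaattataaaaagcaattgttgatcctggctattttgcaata

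Facts of all arrays bear on every comparison. The 75th percentile of intensity was 355 to 472 on the control arrays, 185 to 211 at 3 h and 156 to 161 at 24 h, and signals are given relative to it. Microglial markers were present in every group, with all 15 listed genes well above background in control and at 3 h and 14 at 24 h, where P2ry12, a receptor of resting microglia, was on no array. The summed signal of 20 markers of neurons and of the SH-SY5Y line was 1.85 to 1.93 times the 75th percentile in control, 183 to 201 times at 3 h and 222 to 237 times at 24 h. Of these genes 12 were well above background on no control array, 3 on no array at 3 h and 3 on no array at 24 h. Among the brightest of the 20 at 3 h were Stmn2, a neuronal microtubule regulator, and the secretory granule proteins Scg2 and Chga, at 73.0, 50.6 and 21.6 times the 75th percentile. Stmn2 was well above background on 2 control arrays, and Scg2 and Chga on none. Others moved little, such as Chgb at 0.1 times in control, 0.113 at 3 h and 0.108 at 24 h. Dbh and Phox2a were on no array, and Gata3, on all control arrays, was on none at 3 h. The summed astrocyte markers ranged from 15.1 to 19.4 times the 75th percentile over the 9 arrays, with the gap junction genes Gja1 and Gjb6 on no array. Of 10 oligodendrocyte lineage markers, 8 were well above background on all arrays in control, 7 at 3 h and 6 at 24 h, and Pdgfra was on no array. RNA of the fed human cells that binds mouse probes would appear as a rise, and its part in the rises below was not tested.

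At 3 h, 1779 of the 4948 members measured on all arrays were higher than in control and 852 were lower (limma, Benjamini-Hochberg adjusted p below 0.05 over 34385 probes tested). That is 36% and 17.2% of members, beside 26.3% of all probes called higher and 24.7% called lower. At 24 h, 2005 members were higher and 903 lower, 40.5% and 18.2%, beside 28.2% and 31.9% of all probes. Between the times, 937 members were higher at 24 h than at 3 h and 600 were lower, 18.9% and 12.1%, beside 18.7% and 22.9% of all probes. A member can pass the detection rule through the group in which it is high, so the 3206 members well above background on all 9 arrays were also counted, against the 22487 probes of the whole array that met that condition. At 3 h, 1381 of them were higher (43.1%) and 522 lower (16.3%), where all such probes were 31.6% higher and 30.9% lower. At 24 h, 1531 were higher (47.8%) and 560 lower (17.5%), where all such probes were 30.4% higher and 41.5% lower. Between the times 634 were higher (19.8%) and 428 lower (13.3%), beside 22.1% and 30.8%. These shares are set side by side with no test of their difference. With no filter on dim probes, the shares of all probes called higher were 37.5% at 3 h and 44.9% at 24 h, above the 36% and 40.8% of members, and those called lower were 15.1% and 19.5%, beside 17.2% and 18.1%.

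The split depends on the scaling. Scaling on the median of an array moved the median log2 fold change of all probes from 0.06 to -0.19 at 3 h and from -0.01 to -0.51 at 24 h, and 1227 members were then higher and 1167 lower at 3 h. At 24 h, 1126 were higher and 1752 lower. Quantile normalization moved that median to -0.08 and -0.17, and 1589 members were higher and 1277 lower at 24 h, close to the 1581 and 1285 from the deposited value table and the 1573 and 1313 from normexp. Between the times, the split was 493 higher and 1021 lower with the median as the scale, and 1451 and 391 with the 75th percentile of probes detected on all arrays, which moved the median of all probes from 0.04 to 0.21. Relative to all tested probes, the member median was 0.22 higher at 3 h and 0.32 higher at 24 h on the log2 scale. Scaling on the median or on a 75th percentile shifts all probes of an array alike, so it cannot change this distance. After quantile normalization the distance was 0.20 and 0.22. With normexp, which models the background, these distances were 0.09 at both times. Where every probe of the array, detected or not, was taken as the reference, the members lay below it, by 0.14 at 3 h and 0.27 at 24 h.

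Among members on all 9 arrays, slide 1, with 2 arrays a group, gave a median log2 difference of 0.43 at 3 h and 0.47 at 24 h, and slide 2, with 1 array a group, gave 0.21 and 0.32. On both slides the members lay above all probes measured on all 9 arrays, by 0.42 and 0.21 at 3 h and by 0.58 and 0.44 at 24 h.

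Members called at both times mostly had the same direction. Of all members, 1457 were higher at both times and 512 lower at both, 254 were higher only at 3 h and 502 only at 24 h, and 294 were lower only at 3 h and 323 only at 24 h. Another 68 stood above control first and below it later, 46 took the opposite course, and 1492 were called at neither time. These patterns were not counted over all probes, so they cannot be read as particular to the members. The comparisons share their control arrays, so a control array that stands high or low moves both. The limma F test over time was passed by 3228 of 4948 members, beside 67.5% of all probes. In the regression on time that the methods describe, 1317 of 4948 members passed at R² above 0.9, beside 37.2% of all probes. With a fold change of at least 1.5 besides, 1221 passed, where all probes were at 30.2%. In each case the share of members was smaller than that of all probes, with no test of the difference.

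**Figure D1:**
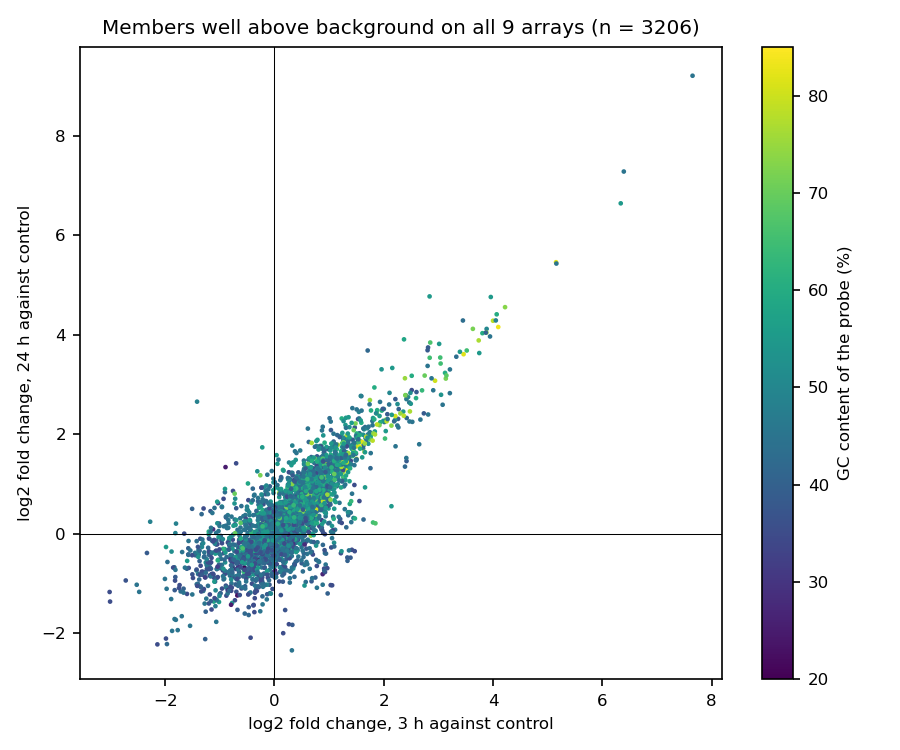
Log2 fold change at 3 h (horizontal) and at 24 h (vertical) against control for the 3206 members well above background on all 9 arrays, 1 point per probe, colored by the G and C content of the probe in percent. Both axes share the control arrays. Probes rich in G and C lie mostly toward the upper right, and the highest points reach log2 fold changes of 7.65 and 9.21.

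The change went with base composition. Among members on all 9 arrays, the median log2 fold change at 24 h was -0.30 for the 309 probes with at most 35% G and C, 0.23 for 1492 probes over 35 to 45%, 0.54 for 553 over 45 to 55%, 0.75 for 690 over 55 to 65% and 1.09 for 162 over 65%. At 3 h the medians in the same order were -0.32, 0.23, 0.46, 0.58 and 0.85. Of the probes over 65%, 129 were higher and 3 lower at 24 h, whereas of those with at most 35% 55 were higher and 144 lower. Other probes on all 9 arrays went the same way, from -0.36 at the lowest to 1.11 at the highest content at 24 h, but 84 of 19281 had over 65%. In the 3 middle ranges the members lay above the other probes, by values such as 0.54 against 0.05 over 45 to 55% and 0.75 against 0.14 over 55 to 65%. Pearson's r across probes between G and C content and the 3 h fold change was 0.36 for members and 0.18 for other probes, and for the 24 h fold change 0.39 and 0.21. Probes are not independent replicates, and they share the 9 arrays.

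The order held at each level of signal examined. Among the dimmest members, at most 20% of the 75th percentile, the median 24 h change was 0.11 for 58 probes with at most 35% G and C and 0.74 for 28 probes with over 65%. Among members above 500%, the 41 probes of the former kind had a median of -0.23 and the 47 of the latter 1.40. The level alone moved the medians less. Members were at 0.55 when at or below 20% of the 75th percentile and at 0.20 when above 500%, and other probes at 0.34 and -0.17.

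Per array, the median log2 signal of the members over 65% G and C minus that of the members with at most 35% was 0.18, 0.21 and 0.55 on the control arrays. On the Ph3h arrays it was 1.79, 1.63 and 1.68, and on the Ph24h arrays 1.99, 1.89 and 1.93. No array of fed cells overlapped the controls. The mean rose from 0.32 ± 0.21 (SD, n = 3) to 1.70 ± 0.08 and 1.93 ± 0.05, and the exact two-sided permutation test gave p = 0.1 for each of the 3 comparisons, the smallest p that 3 against 3 arrays allow. In unscaled intensity, the medians of the probes over 65% were 281 to 304 in control, 252 to 332 at 3 h and 278 to 310 at 24 h, so the groups overlapped. Those of the probes with at most 35% were 204 to 268 in control, 81.0 to 96.2 at 3 h and 71.9 to 81.3 at 24 h, without overlap with control. In the 3 ranges between, the medians were also lower on every fed array than on every control array. They ran from 101 to 111 in control to 69.2 to 74.4 at 24 h for probes over 55 to 65%, and from 122 to 139 to 61.6 to 68.0 for those over 35 to 45%. Before scaling, the range over 65% was therefore the single one of the 5 in which fed and control arrays overlapped. The overall dimming of the arrays and the neuronal marker sum moved with it, and their part in it was not tested.

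**Figure D2:**
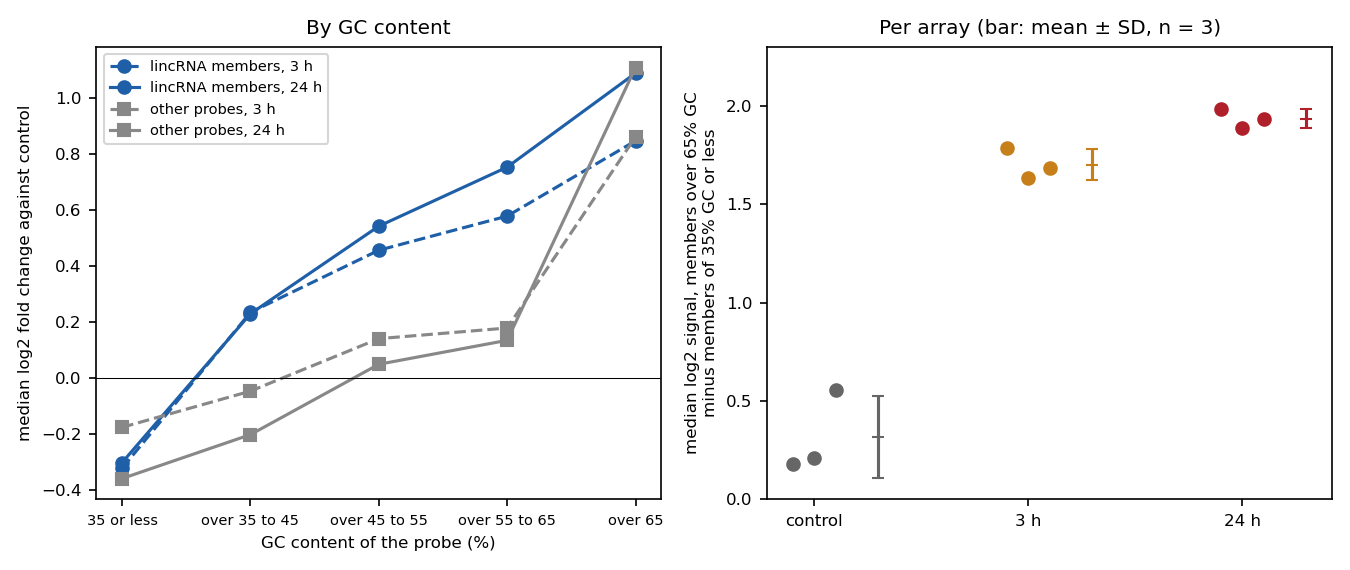
Left, the median log2 fold change against control of members and of other probes on all 9 arrays (vertical) by the G and C content of the probe (horizontal), with dashed lines for 3 h and solid lines for 24 h. Right, the median log2 signal of members over 65% G and C minus that of members with at most 35%, 1 point per array, with mean ± SD (n = 3); the control arrays lie between 0.18 and 0.55 and the fed ones between 1.63 and 1.99.

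Of the 6 brightest members, 4 had over 65% G and C. The probe of chr14:78924115-78938125_F was at 563, 683 and 797 times the 75th percentile on the control arrays, 1340, 1240 and 1170 times at 3 h and 1470, 1530 and 1360 times at 24 h. Its log2 fold change was 0.89 ± 0.13 (SE) at 3 h and 1.11 ± 0.13 at 24 h, with adjusted p of 0.00099 and 0.00025, although with normexp the former was not called. Its unscaled intensity, however, was 266000 to 283000 in control, 229000 to 283000 at 3 h and 219000 to 240000 at 24 h, so that before scaling it did not rise. The probe of chr17:39982023-39983277_F lies 203 bases from a probe for Rn45s, the precursor of ribosomal RNA, on the same strand. It rose by 1.18 at 3 h and 1.40 at 24 h (log2), and the Rn45s probe by 1.05 and 1.12, but the unscaled intensity of the member, 164000 to 186000 in control, 177000 to 211000 at 3 h and 171000 to 190000 at 24 h, overlapped between the groups. The probe of chr6:83368261-83407280_F rose by 1.95 at 24 h. The other pair had 50.0% G and C. That of chr17:17481706-17482457_R rose by 0.47 at 3 h, a call lost with quantile normalization, median scaling and normexp, and by 0.83 at 24 h. The change of chr7:108209996-108216032_R at 3 h was 0.32 (adjusted p = 0.019), but -0.18 after quantile normalization and in the deposited value table and -0.22 with normexp, called lower in each, and its call was lost without control replicate 1 or Ph3h replicate 3.

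The largest rises among members measured in every group were far above the spread of the arrays. The probe of chr5:54053328-54053870_F gave 6.32, 8.13 and 8.67% of the 75th percentile in control, 1740, 1920 and 1080% at 3 h and 3890, 4230 and 5580% at 24 h. Its log2 fold change was 7.65 ± 0.25 at 3 h (adjusted p = 7.1e-07) and 9.21 ± 0.25 at 24 h (adjusted p = 2.2e-07), and the lowest fed array was over all controls. The nearest gene probe on its strand, 5.01 kb away, belongs to Rbpj, the DNA-binding partner of Notch, and this moved the other way, by -1.28 and -0.82. The probe of chrX:11693432-11693908_R was at 24.9, 30.1 and 32.2% in control, 2640, 2220 and 2450% at 3 h and 4610, 3920 and 5020% at 24 h, a log2 rise of 6.39 and then 7.28. That of chr4:134866237-134867024_F went from 5.57, 6.52 and 8.19% to 568, 672 and 411% at 3 h and 588, 591 and 851% at 24 h. These 3 rose at 3 h already, and the groups of fed arrays stood apart from control in each.

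Others rose steeply too. The probe of chr5:88995039-89009064_R was at 7.32 to 10.5% in control, 237 to 355% at 3 h and 332 to 396% at 24 h. The probe of chr3:30032959-30079659_R rose in steps, from 20.6, 16.3 and 20.5% to 129, 147 and 132% at 3 h and 557, 538 and 467% at 24 h. Its log2 fold change was 2.84 ± 0.12 at 3 h, 4.77 ± 0.12 at 24 h and 1.93 between the times. The nearest gene probe on its strand was for Mecom, a zinc finger transcription factor, 397 kb away.

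**Figure D3:**
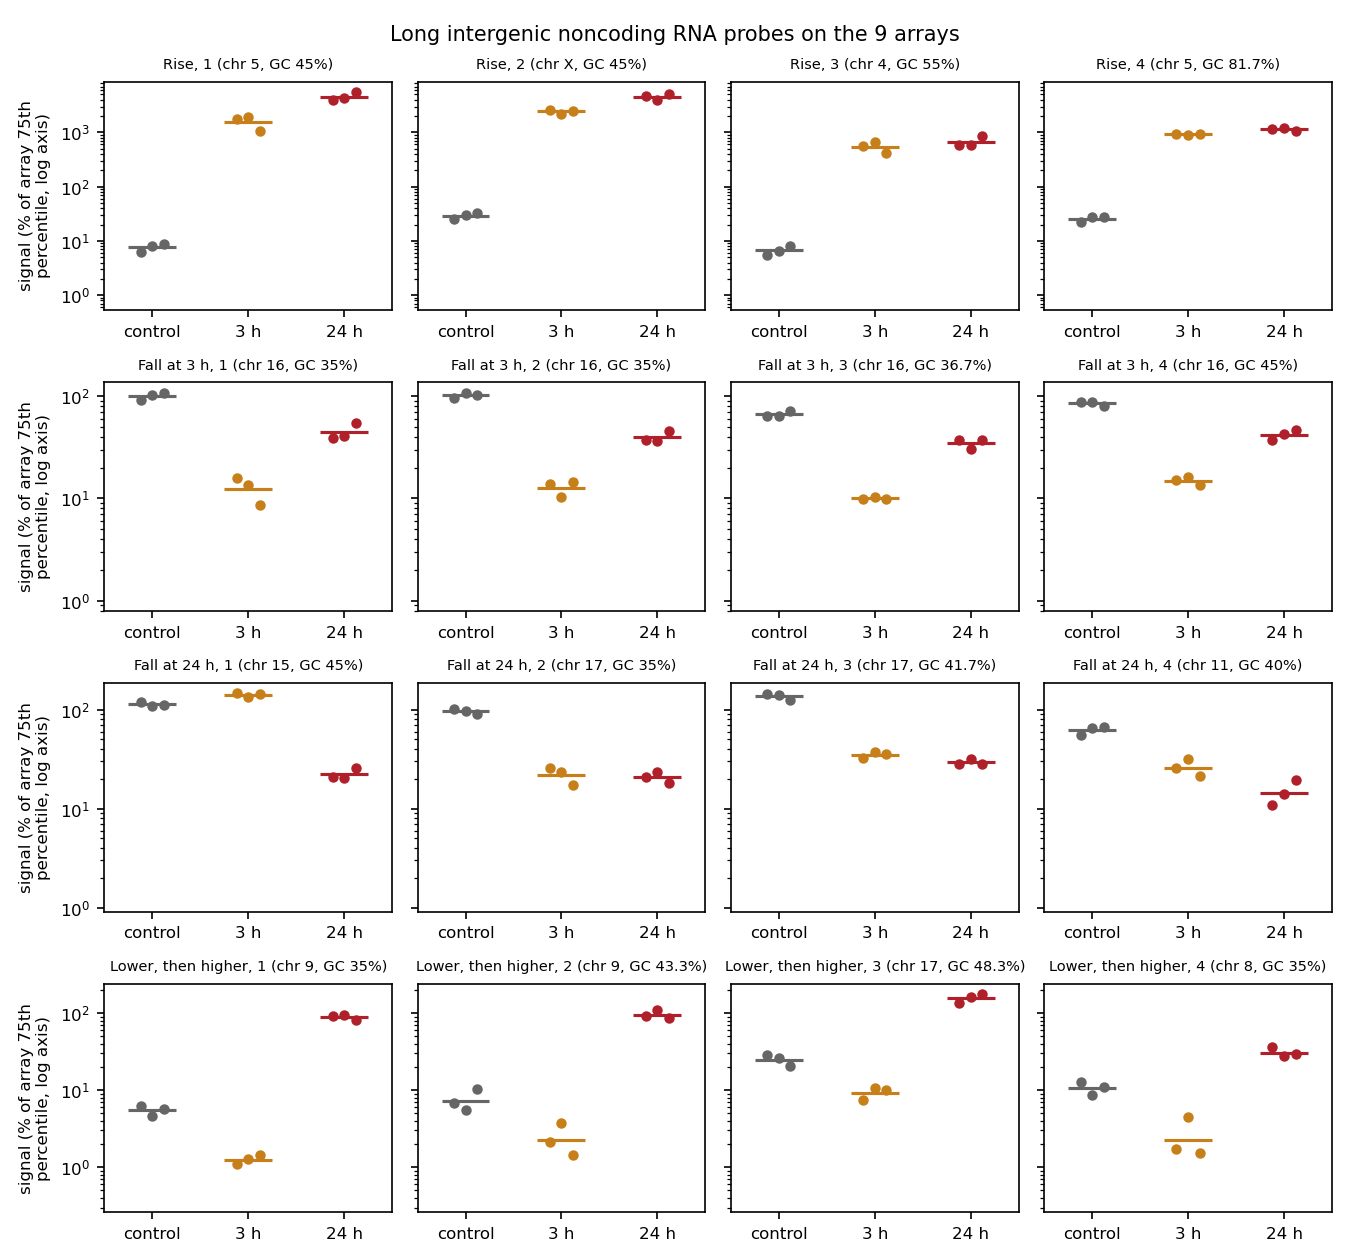
Signal of 16 members on the 9 arrays, in percent of the 75th percentile of the array on a log axis, 1 point per array and a bar for the geometric mean of 3 arrays, with a shared axis in each row. The rows hold the 4 largest measured rises at 24 h, the 4 largest measured falls at 3 h, which are 4 probes of 1 region strand, the 4 largest measured falls at 24 h, and 4 members lower at 3 h and higher at 24 h. In no panel of the upper row do fed and control arrays overlap.

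Some members appeared from background. On no control array but on all fed arrays, 77 members were well above background, with a median signal of 1.85% of the 75th percentile in control, 16% at 3 h and 25% at 24 h. They were 1.56% of members, beside 0.989% of all probes tested. The opposite pattern, on all control arrays and no fed array, was held by 210 members, 4.24% beside 1.93%. Both patterns are defined by the detection calls that also made these probes members, so the medians follow from the choice. A tested probe needed a call on any array only, a wider rule than that for members, so these shares are not like for like. For both kinds only a lower bound of the change can be given, the mean of the bright group against the higher of the probe's own signal and the faintest signal called well above background on each dim array. The probe of chr8:26870059-26870530_F gave 0.838, 2.58 and 2.94% in control, 1220, 1070 and 1010% at 3 h and 884, 896 and 810% at 24 h, and was at least 364-fold higher at 3 h and, by the later time, at least 287-fold. That of chr8:90000619-90061169_R went from 2.31, 2.56 and 3.95% to 352, 405 and 409% and to 1000, 970 and 1420%, at least 119-fold and 341-fold higher. The nearest gene probe on its strand, 172 kb away, was for the zinc finger transcription factor Zfp423, and changed by 7.39 at 3 h and 7.65 at 24 h. A transient form was seen for chr19:19005109-19008657_R, 1.69 kb from a probe for the nuclear receptor gene Rorb on the same strand. It was at 0.955, 1.78 and 0.944% in control, 171, 172 and 153% at 3 h and 51.0, 49.6 and 44.9% at 24 h, at least 54.8-fold and 16.1-fold higher, while the Rorb probe changed by 0.29 and 0.31 and was not called. The probe of chr2:145501249-145508811_F was higher by at least 33.2-fold at 3 h and 119-fold at 24 h.

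The other probes on the region strand of a changed member were looked at. Members were grouped here by fitted fold, also where arrays of 1 group were below the detection call. At 24 h 134 were higher by 10-fold or more in this way and 41 lower by 4-fold or more. Among members measured on every array of both groups these were 38 and 6. The fitted counts were not set beside all probes. Of the 134, 127 had another probe on the same region strand, and these regions held 511 such other probes. Of these, 146 (28.6%) were members, beside 30.6% of all lincRNA probes, and 288 were well above background on none of the 9 arrays. At 3 h the share was 31.5%. Members lower by 4-fold or more had shares of 71.8% (24 h) and 68.3% (3 h), and those lower by 2 to 4-fold 70.0% and 70.4%. The other probes that were members mostly went the same way as the first. After rises of 10-fold or more at 24 h, 71.9% of them were called higher and 7.53% lower. After falls of 4-fold or more at 24 h, 62.8% of them were called lower and 13.8% higher. Of all members, 40.5% were higher and 18.2% lower at 24 h. As an example, the region strand chr5:54053328-54053870_F has 3 probes on the array, of which 1 was a member, and chrX:11693432-11693908_R likewise. The region strand chr4:134866237-134867024_F has 2 members, and the second changed by 0.10 at 3 h and 0.18 at 24 h against 6.34 and 6.64 for the first. The regions differ in length, and members that changed together share a region, so these shares are a description with no test.

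**Figure D4:**
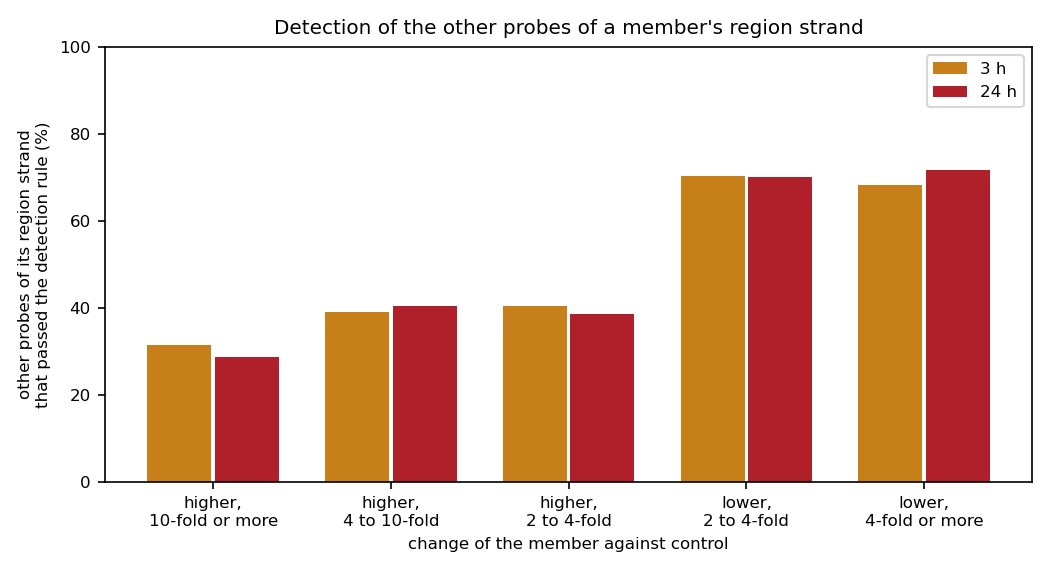
Share of the other probes on the same region strand that passed the detection rule, in percent (vertical), for members grouped by the size and direction of their own called change against control (horizontal), with 1 bar for each time. Sizes are fitted folds, also for members below the detection call on arrays of 1 group. The bars are 28.6 to 40.5% for members that rose and 68.3 to 71.8% for members that fell.

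The size of a fall could be measured only where a probe stayed above background. Among members well above background on every array of both groups, 98 were called higher by 4-fold or more at 3 h (2.76%) and 9 lower (0.253%), beside 2.13% and 0.469% of all such probes. At 24 h 158 were higher (4.67%) and 6 lower (0.177%), beside 3.05% and 0.719%. By 10-fold or more, 24 were higher at 3 h and 38 at 24 h, and 0 were lower, where all such probes were 0.561% and 0.875% higher and 0.0253% and 0.026% lower. These counts rest on 1977 of the 2631 called members at 3 h and 2156 of the 2908 at 24 h. The called members left out include those well above background on no array of 1 group. Of this kind were 337 at 3 h, of which 135 were higher and the rest lower. At 24 h they were 377, of which 142 were higher and the rest lower. Such calls were not counted over all probes, so their split cannot be read as particular to the members. A dim member can pass the detection rule through control alone, as 738 did. Among the falls measured on every array of both groups, the steepest at 3 h came from chr16:44717531-44724206_R, where all 5 members were lower and whose nearest gene probe on that strand, for the GTP-binding protein Gtpbp8, lay about 20.0 kb away and fell by 1.33 on the log2 scale. Its 4 leading probes went from 63.3 to 108% of the 75th percentile in control to 8.69 to 16.2% at 3 h, and stood at 30.6 to 54.3% at 24 h, between the levels of control and 3 h. The probe whose sequence is given was at 94.9, 108 and 102% in control, 13.7, 10.2 and 14.4% at 3 h and 37.3, 36.1 and 45.8% at 24 h. Its log2 change was -3.01 ± 0.15 at 3 h (adjusted p = 5.9e-06) and -1.36 ± 0.15 at 24 h (adjusted p = 0.0002). Control and fed arrays did not overlap at either time.

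All 3 members of chr16:29907604-29946602_R were lower at 3 h. The leading one was at 42.1, 40.6 and 39.7% in control, 7.63, 6.74 and 7.7% at 3 h and 17.3 to 19% at 24 h. The leading member of chr18:75518299-75524782_R dropped from 234, 223 and 213% to 45.1, 39.5 and 48.8% and was at 162, 171 and 181% at 24 h, still below control. A probe of chr2:180161459-180189542_R was at 58.6, 68.0 and 59.4% in control, 15.0, 15.1 and 9.22% at 3 h and 59.1, 68.6 and 96.8% at 24 h, where its change of 0.24 was not called, and 1 of the 3 members of this region strand was instead higher at both times. In the chromosome 1 region strand chr1:139822286-139822985_F all 3 members were lower at both times, and the leading one, below the detection call on each Ph3h array, was at least 6.36-fold lower at 3 h. The 5 members of chr3:21964899-21974524_R were all lower at 3 h, and 4 of them were lower at 24 h. The leading one overlaps a probe for LOC102642487 on the same strand, which changed by -3.13 at 3 h and by -0.31 at 24 h, the latter not called.

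At 24 h, a region strand next to Tgif1, a repressor of TGF-β signaling whose probe lay 8.31 to 8.48 kb away on the opposite strand, gave 3 of the 6 largest falls measured on every array of both groups. The 3 probes of chr17:71183978-71185384_F were at 90.4 to 146% in control, 17.3 to 37.6% at 3 h and 18.2 to 34.5% at 24 h. Their log2 changes were -2.14 to -1.97 at 3 h and -2.22 to -2.10 at 24 h, so that all 3 were as low at 3 h as at 24 h within 0.25 on the log2 scale. The 6 members of chr11:97457180-97487074_F were all lower at 24 h, with log2 changes of -2.67 to -1.37, and the leading one was at 55.9, 65.7 and 66.2% in control, 25.9, 31.8 and 21.2% at 3 h and 10.9, 14.2 and 19.3% at 24 h. The leading probe of chr12:86415200-86415483_F was at 44.1 to 56.2% in control, 65, 25.6 and 30% at 3 h, where the groups overlapped, and 9.75, 12.4 and 13.4% at 24 h.

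The region of Pvt1, a long noncoding RNA gene beside the Myc oncogene, held leading probes that moved in opposite directions on its strands at 24 h. On the forward strand, that of Pvt1, the leading probe of chr15:61984389-62102500_F was at 120, 109 and 111% in control, 146, 135 and 144% at 3 h and 21.1, 20.5 and 25.7% at 24 h. Its log2 change was 0.32 ± 0.10 at 3 h and -2.34 ± 0.10 at 24 h, and that of the brightest Pvt1 gene probe was 0.43 and -2.36. Both calls at 3 h were lost without control replicate 2 or 3 or Ph3h replicate 1 or 3. Of the 4 members of this region strand 2 were higher and 2 lower at 24 h. All 3 members of chr15:62046023-62082530_F within the same interval were lower at 24 h, with log2 changes of -3.55 to -1.23. A pair of these, 60 and 120 bases from a Pvt1 probe, were well above background on no array at 24 h and at least 6.65-fold and 5.01-fold lower. On the reverse strand, a probe of chr15:61984389-62102500_R went from 1.54, 1.92 and 1.46% in control to 50.9, 57.1 and 43.7% at 3 h and 230, 240 and 199% at 24 h, at least 16.7-fold and 74-fold higher, and of the 4 members there 3 were higher and 1 lower. Upstream, 49.4 kb from a Myc probe, a member of chr15:61870759-61938796_F was at 7.53 to 10.2% in control, 14.4 to 17.8% at 3 h and 1.6 to 2.92% at 24 h. Its call at 3 h was lost without control replicate 1 or 3 or Ph3h replicate 3, and the Myc probe changed by -3.13 and -1.59.

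Turns of direction between the times were fewer, and some took in every member of a region strand. Both members of chr9:78107225-78118850_F, which overlap or adjoin a probe for Gm3776 and lie 62.0 kb from one for the glutathione transferase gene Gsta2 on the other strand, fell by 3 h and stood above control by 24 h. The printed one was at 6.29, 4.67 and 5.7% in control, 1.09, 1.28 and 1.43% at 3 h and 90.3, 95.5 and 82.2% at 24 h. It was well above background on no array at 3 h, and at 24 h it was at least 16.4-fold higher than at 3 h. Its fitted change against control was 4.02 ± 0.14 at 24 h (log2, adjusted p = 7.7e-07), and the Gm3776 probe changed by -1.36 at 3 h and 3.98 at 24 h. A probe of chr17:56687541-56694631_R followed the same course, from 28.7, 26.2 and 20.5% to about 7.4, 11 and 10% and then 136, 162 and 176%, but the other 3 members of this region strand were higher at both times. All 5 members of chr14:77511189-77522852_F, 402 bases from a probe for Ccdc122, turned likewise, though the 24 h call of the leading one was lost without control replicate 1 or 2 or Ph24h replicate 1 or 3. Both members of chr14:62254361-62301162_R, 17.1 to 24.9 kb from a probe of the noncoding gene Dleu2, did the same, and the brighter was at 105 to 113% in control, 63.9, 68.2 and 68.4% at 3 h and 262, 323 and 289% at 24 h.

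The opposite course was taken on chromosomes 4, 11 and 13. A probe of chr4:114627748-114632898_R was at 10.2, 13 and 22.3% in control, 27.8, 27.2 and 29.9% at 3 h and 3.81, 2.9 and 1.87% at 24 h, and 3 of the 4 members of this region strand were higher at 3 h and all 4 lower at 24 h. Both members of chr11:16831925-16851121_R, 21.9 kb from a probe for the growth factor receptor gene Egfr on the other strand, rose by 3 h and were below control by 24 h. The leading one was at 17.9, 16.4 and 19.7%, then 45, 56.4 and 57.8%, then 7.54, 7.1 and 5.9%. The member of chr13:94182877-94203935_F was at 2.99 to 5.35% in control, 25.4 to 31.6% at 3 h and 1.87 to 2.96% at 24 h. The 3 h call on chromosome 4 was lost on leaving out any of 6 arrays (control replicates 1 and 2, all 3 of Ph3h and Ph24h replicate 2), and the 24 h call on chromosome 13 without control replicate 1 or 3 or Ph24h replicate 1. All 5 members of chr1:175705225-175717250_R were lower than control at 24 h, and the leading one fell from 181, 171 and 176% at 3 h to 45.5, 33.2 and 40.6%.

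The change of a member was set beside that of its nearest other probe. Where the nearest other probe on the same strand was within 100 bases, Pearson's r between the log2 fold changes of the member and that probe was 0.89 at 3 h and 0.81 at 24 h over 142 members. For 110 of these pairs the probes overlap, and such pairs share sequence. Whether such a member reports the transcript of its neighbor was not tested. Over 100 bases to 1 kb r was 0.53 and 0.44 over 341 members, over 1 to 10 kb it was 0.22 and 0.23 over 971, over 10 to 100 kb it was 0.12 and 0.10 over 2373 and beyond 100 kb it was 0.03 and -0.02 over 1079. Where both were called at 3 h, the direction was shared by 96.2% within 100 bases and by 51.6% beyond 100 kb. On the opposite strand r was 0.35 and 0.20 for 34 members within 100 bases, 0.24 and 0.16 for 217 up to 1 kb, and at most 0.10 at greater distance. These r are across probes measured on the same arrays, so they are given with no p.

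**Figure D5:**
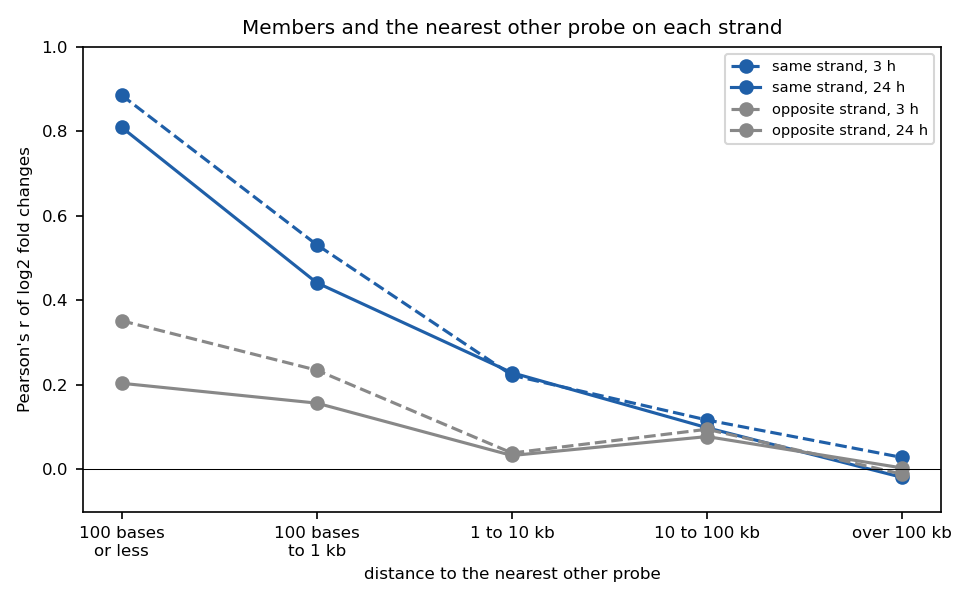
Pearson's r across members between the log2 fold change of a member and that of the nearest other probe (vertical), by the distance between probe centers on mm9 (horizontal), on the same strand (blue) and the opposite strand (gray), with dashed lines for 3 h and solid lines for 24 h. On the same strand r falls from 0.89 and 0.81 to 0.03 and -0.02.

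Within regions, probes of the same strand were only loosely alike. Where a region strand had exactly 2 members, r between them was 0.40 at 3 h and 0.36 at 24 h over 576 pairs, and 0.32 and 0.30 over 354 pairs on all 9 arrays. Between the strand means of regions with members on both strands r was 0.05 and 0.06 over 465 regions. Of 643 region strands with 3 or more members, all members were higher in 65 at 3 h and 86 at 24 h, all were lower in 70 and 72, members were called in both directions in 67 and 88, and no member was called in 92 and 83. Of single members, 36% were higher and 17.2% lower at 3 h, and 40.5% and 18.2% at 24 h. How many such region strands these shares alone would give was not worked out. In chr6:5311375-5328075 the reverse probe went from 1.04, 0.895 and 0.946% in control to 38.2, 31.1 and 47.6% at 3 h and 121, 116 and 158% at 24 h, at least 43.3-fold higher, while of the 3 forward members 2 were not called at 24 h and the other was well above background on no fed array. In chr16:44717531-44724206, whose reverse strand fell, the forward probe rose from 0.667 to 0.839% to 29.0 to 47.6% at 24 h, at least 11.6-fold. In chr3:93150619-93184368 the reverse probe was at least 29.8-fold higher at 24 h, and the forward one changed by 0.02 and was not called.

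Some members lie at the start of an annotated gene. Their letters were searched in windows from 250 bases before to 50 bases after the start of each gene in the RefSeq table of build GRCm38.p6, 32851 windows in all. In these, 71 members matched over all 60 bases, 33 in the direction of the gene and 42 against it, with some in both. Of the antisense members 24 were higher and 2 lower at 24 h, and of the sense members 18 were higher and 4 lower, beside 28.2% of all probes higher and 31.9% lower. The median G and C content was 60% and 55%. On all 9 arrays, 21 of 32 antisense members and 14 of 25 sense members were higher, and of all members over 55 to 65% G and C it was 468 of 690. The median log2 change at 24 h was 1.04 for antisense and 0.55 for sense, beside 0.75 for that range. Another 3 members shared at least 30 bases with a microRNA hairpin.

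The antisense member with the largest change was chr5:124697599-124700029_F, within the promoter window of Pitpnm2, a phosphatidylinositol transfer protein gene. It was at 22.0, 28.0 and 28.2% in control, 927, 896 and 941% at 3 h and 1170, 1200 and 1050% at 24 h, a log2 change of 5.15 ± 0.11 and 5.46 ± 0.11 with adjusted p of 1.1e-07 and 6.4e-08, without overlap. The nearest gene probe on its strand, for Pitpnm2os1 at 12.8 kb, changed by 1.56 and 2.29. The second member of that region strand changed by 0.57 at 3 h and 0.27 at 24 h, and the latter was not called. The 250 bases before the Pitpnm2 start, at chr5:124249761-124250010 on the minus strand of GRCm38.p6, read as follows, with the stretch that pairs with the probe, 200 to 141 bases before the start, in capitals.
Pitpnm2: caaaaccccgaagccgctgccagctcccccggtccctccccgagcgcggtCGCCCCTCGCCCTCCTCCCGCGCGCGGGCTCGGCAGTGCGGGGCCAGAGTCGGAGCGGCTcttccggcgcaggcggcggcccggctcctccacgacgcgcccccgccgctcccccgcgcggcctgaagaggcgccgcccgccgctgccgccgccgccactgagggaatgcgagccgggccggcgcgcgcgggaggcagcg

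Antisense to Smim13, which encodes a small membrane protein, a member of chr13:41337973-41379821_R went from 309, 311 and 425% to 1400, 1140 and 1260% at 3 h and 1920, 1950 and 1680% at 24 h, a rise of 1.87 and 2.42. Of the 9 members of that region strand 2 were higher and 5 lower at 24 h. Antisense to Fbrs, a member of chr7:134620707-134626739_R rose from 222, 239 and 281% to 688, 658 and 672% and to 1100, 1050 and 984%. At the start of Pappa2, a secreted metalloprotease gene, the sense member of chr1:160888257-160910594_R was well above background only at 24 h, at 20.8, 10.1 and 22.4%, and was at least 5.57-fold higher than in control. A fall was seen for a member of chr7:86651948-86675223_F in the sense direction of Mir9-3hg, the host gene of a microRNA of the nervous system. It was at 9.57, 13.2 and 31.7% in control, was on no array at 24 h, and was at least 2.55-fold lower.

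A known poly(A) signal, the letters AATAAA in the sense of the probe, occurred in 4.0% of member probes, 3.92% of all lincRNA probes and 12.6% of the other probes. TTTATT, the same letters on the other strand, occurred in 2.75%, 3.03% and 4.03%.

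Named long noncoding RNA genes, which the array holds under symbols, were set beside the regions. Of 69 on the list 39 are on the array and 30 were tested. At 3 h 5 were higher and 12 lower, and at 24 h 5 were higher and 15 lower, beside 26.3% higher and 24.7% lower of all probes at 3 h and 28.2% and 31.9% at 24 h, with median log2 fold changes of -0.50 and -0.44, below those of the members (0.28 and 0.32) and of all tested probes (0.06 and -0.01). Snhg12, a host gene of small nucleolar RNAs, was at 653, 622 and 652% in control, 448, 420 and 462% at 3 h and 230, 283 and 262% at 24 h, a log2 change of -0.54 and -1.32. Firre, an X-linked nuclear RNA, changed by -1.58 at 24 h. The imprinted H19 was at 2.06, 0.955 and 1.77% in control, 2.46, 2.68 and 3.11% at 3 h and 53.6, 45.2 and 50.0% at 24 h, and was at least 16.4-fold higher at 24 h. It is among the 5 counted as higher at 3 h, although no control or 3 h array was well above background. Crnde, also among those 5, was well above background on 1 control array and 2 arrays at 3 h. Mir22hg rose by 0.49 at 3 h and 1.48 at 24 h. The brightest Dleu2 probe rose by 1.32 at 24 h, but another Dleu2 probe changed by 0.27 and was not called. For Malat1 and Neat1, which mark nuclear speckles and paraspeckles and are named outside the rule as the best known of the list, changes of 0.53 and -0.47 at 3 h and 0.26 and -0.08 at 24 h were not called.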

How the data were processed

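RNA of 9 microglia samples was hybridized to 1-color Agilent 60-mer mouse arrays, with replicates 1 and 2 of each group on slide 1 and replicate 3 on slide 2. The authors deposited 1 scanner file per array, from Agilent Feature Extraction 10.7.3.1, whose processed signal is a background-subtracted linear intensity that is not scaled between arrays. They also deposited a table of log2 values centered per probe, made with GeneSpring, used here only as an alternative. Values of unflagged spots were averaged per probe on the log2 scale, and the 75th percentile of non-control probes was subtracted per array. Of 55681 probes, 56 (3 of them members) lacked a usable spot on some array and were dropped. The 34385 probes with a detection call on any array were fitted with group means in limma 3.58.1 (R 4.3.3), with Benjamini-Hochberg adjustment over all of them. The exact permutation tests used scipy. The array's probes hold mm9 positions. No array spot was saturated, and the number of arrays limits the precision.

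Members were named by rule, as the largest called rises and falls of each comparison, the largest lower bounds, the brightest, those with opposite calls at the 2 times, both-strand regions and promoter matches, and not all are printed. Some items are not reported here. Members and lists were chosen with earlier results of these data known. The fits were tested on simulated data. The samples were fitted as unpaired, since all 9 correlations of same-numbered arrays lay between -0.0547 and 0.0429. Such correlations cannot show whether same-numbered arrays came from the same experiment. Alternatives are given in the closing section.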

Additional observations from a re-analysis of the deposited data

Results flagged for a closer look

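Some named members were chosen because they were called in opposite directions at 3 h and 24 h, so their difference between the times, past the threshold in limma, is given as a description. The members first below and then above control differed between the times, on the log2 scale, by 6.15 and 5.39 for the probes of chr9:78107225-78118850_F, 4.07 for chr17:56687541-56694631_R and 3.77 for chr8:89996710-90049453_F. Those first above and then below control differed by -3.69 for chr13:94182877-94203935_F, -3.37 for chr4:114627748-114632898_R, -2.98 for chr15:61870759-61938796_F and -2.95 for chr11:16831925-16851121_R. In all but that of chr17:56687541-56694631_R, 1 of the times held no array well above background, so the fitted differences are not bounds. The lower bounds there were 16.4-fold and 17.5-fold for chr9:78107225-78118850_F, 5.65-fold for chr8:89996710-90049453_F, 4.55-fold for chr13:94182877-94203935_F, 4.54-fold for chr4:114627748-114632898_R, 2.54-fold for chr15:61870759-61938796_F and 7.74-fold for chr11:16831925-16851121_R.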

How the results depend on the processing

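The share of members called higher depends on the scale. With the median as the scale, 1126 members were higher and 1752 lower at 24 h against control and 493 higher and 1021 lower between the times. With the 75th percentile of probes detected on all arrays, 1451 were higher and 391 lower between the times. Keeping the brightest probe of each name left fewer members, with 1070 higher and 323 lower at 3 h, 1244 and 347 at 24 h and 518 and 256 between the times. Slide 1 alone gave 595 higher between the times.

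The median log2 change of members less that of all probes, 0.223 at 3 h, 0.325 at 24 h and 0.101 between the times, turned to -0.137, -0.27 and -0.107 when dim probes were kept in the reference. It was 0.0931, 0.0942 and 0.023 with normexp, 0.22 at 24 h with quantile normalization and in the deposited value table, 0.274, 0.438 and 0.152 with detection on all 3 arrays of a group, 0.346 at 3 h and 0.491 at 24 h with the brightest probe of each name, and 0.28 and 0.379 on slide 1. Leaving out 1 array gave 0.174 to 0.275 at 3 h and 0.292 to 0.382 at 24 h, the ends being control replicates 1 and 3. The gap in change between members over 65% and members of at most 35% G and C was 0.687 at 3 h and 0.902 at 24 h with normexp, against 1.17 and 1.39. The correlation between 2 members of a region strand was 0.302, 0.263 and 0.4 with normexp, against 0.401, 0.363 and 0.563, and that with a gene probe within 100 bases at 3 h was 0.847 to 0.889 on leaving out 1 array. The change of chr7:108209996-108216032_R at 3 h turned to -0.18, -0.22 and -0.18 with quantile normalization, normexp and the deposited value table. The cause was not tested for these.

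Detection on any array gave 7637 members and detection on all 9 gave 3206. Of the 4948 members, 3228 passed the limma F test over time, beside 67.5% of all probes. The regression at R² above 0.9 was passed by 1317, beside 37.2%. With a fold change of at least 1.5 besides it was 1221, beside 30.2%. Each share of members was smaller than that of all probes. With the replicate number as a block, although same-numbered arrays were not correlated, 1729 members were higher and 836 lower at 3 h, 1944 and 865 at 24 h and 870 and 559 between the times.

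Among single members and genes, 6487 of 6879 values under alternatives kept a call with its direction or stayed uncalled, in either direction. Another 264 lost the call, 125 gained one and 3 reversed. Of 236 called results 33 lost the call on leaving out some array. Dim probes limit falls, which end at the background.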
